A study of Rattus norvegicus with 6 samples.

Results

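The circadian clock genes examined here are 10 genes of the core transcriptional loop, Arntl, Arntl2, Clock, Npas2, Per1, Per2, Per3, Cry1, Cry2 and Nr1d1. They were taken as the rows of the deposited gene table that carry these names, and all 10 were found among its 19088 rows. The table comes from poly(A) RNA sequencing of 6 samples of primary cells from the nucleus pulposus, the soft centre of the intervertebral disc, of SD rats. In 3 samples, called rShh, the cells had received recombinant Sonic hedgehog, a secreted ligand, at 200 ng/ml in DMSO for 48 h. In the other 3, called Control, they had received DMSO alone for 48 h, and all 6 were cultures in DMEM/F12 with 10% fetal bovine serum. Nothing in the labels states whether samples of the same group are separate animals or cultures, and p-values here reflect how far these samples differ, which may be technical variation. Each group was sampled at 1 time after treatment, and the labels give neither a synchronising step nor an hour of the day, so the phase and amplitude of a rhythm were not measured.

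The mammalian clock is a feedback loop of transcription that runs in most cells, the disc included. The activators CLOCK or NPAS2 pair with ARNTL (also called BMAL1) or ARNTL2 (BMAL2) and bind E-boxes in the promoters of the Per and Cry genes, whose proteins then return to the nucleus and inhibit the activators. In a second loop, REV-ERB proteins (from Nr1d1 and Nr1d2) repress and ROR proteins activate Arntl through ROR elements, and further factors act on D-boxes.

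The promoters of these genes were searched for the elements of these loops. RefSeq promoters of the rat build GRCr8, 250 bases before to 50 after a start site, matched 9 of the 10 clock genes (11 promoters), with Arntl and Arntl2 listed there as Bmal1 and Bmal2. Both strands were searched for the E-box CACGTG, the D-box TTANGTAA, the cAMP response element TGACGTCA and the ROR element AGTAGGTNA, motifs of different letters that can overlap in part. Those letters occurred in 6.42%, 2.24%, 1.83% and 0.604% of all 33469 promoters of that length. Arntl held a pair of ROR elements, Per2 a D-box and Nr1d1, in the second of its 2 listed promoters, an E-box, while the other promoters of clock genes held none of these letters in the window. Among 9 other loop genes that matched, E-boxes stood in Bhlhe40, Bhlhe41, Tef and Ciart. Shown here are the 250 bases before the start site of Arntl, for its pair of ROR elements, of Per2, for its D-box, and of Bhlhe40 and Bhlhe41, paralogues that hold an E-box each and moved in opposite directions (written 5′ to 3′ on the gene's strand, matches in capitals).
Arntl (chr1:176766078-176766327, plus strand): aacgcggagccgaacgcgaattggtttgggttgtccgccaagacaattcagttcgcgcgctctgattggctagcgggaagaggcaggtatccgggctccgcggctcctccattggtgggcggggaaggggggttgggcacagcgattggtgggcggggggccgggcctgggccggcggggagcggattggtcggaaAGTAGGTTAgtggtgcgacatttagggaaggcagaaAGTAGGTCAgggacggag
Per2 (chr9:99496994-99497243, minus strand): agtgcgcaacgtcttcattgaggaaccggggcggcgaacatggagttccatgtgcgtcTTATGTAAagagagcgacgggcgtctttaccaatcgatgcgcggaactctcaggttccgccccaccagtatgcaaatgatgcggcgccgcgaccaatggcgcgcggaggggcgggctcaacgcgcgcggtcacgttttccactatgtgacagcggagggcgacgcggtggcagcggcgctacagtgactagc
Bhlhe40 (chr4:143174200-143174449, plus strand): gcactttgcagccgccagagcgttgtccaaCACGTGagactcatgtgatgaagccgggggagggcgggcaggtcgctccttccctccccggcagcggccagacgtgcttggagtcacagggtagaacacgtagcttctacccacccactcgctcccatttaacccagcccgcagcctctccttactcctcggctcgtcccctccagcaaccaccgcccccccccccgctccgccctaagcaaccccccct
Bhlhe41 (chr4:180569356-180569605, minus strand): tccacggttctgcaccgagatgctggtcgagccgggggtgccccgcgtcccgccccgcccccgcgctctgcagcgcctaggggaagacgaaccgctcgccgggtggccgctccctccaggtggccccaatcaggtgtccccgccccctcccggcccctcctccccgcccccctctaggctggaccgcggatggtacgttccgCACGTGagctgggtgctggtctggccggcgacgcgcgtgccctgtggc
The ROR elements of Arntl began 54 and 18 bases before the start site and the D-box of Per2 192 bases before it. The E-boxes of Bhlhe40 and Bhlhe41 began 220 and 48 bases before theirs. These are matches of letters, and binding was not measured. Other spellings of these elements and sites outside the window were not searched, so a promoter without a match may still hold such an element.

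Library facts that touch every value below are few. Gene counts summed to 50758195 to 55501124 per Control library and 65116846 to 70031072 per rShh library, and mitochondrial transcripts took 1.97% to 2.28% and 3.25% to 3.36% of them. Y-chromosome genes such as Kdm5d and Eif2s3y had 0 counts in all Control libraries, while in rShh libraries Kdm5d had 2235 to 2335 and Eif2s3y 3868 to 4159, so the ligand and this difference between the groups cannot be told apart in any comparison. Of 14 nucleus pulposus and notochord markers, 8 were in the table, and they summed to 159 to 188 CPM (counts scaled to the TMM-adjusted library size) in Control and 640 to 672 in rShh. The higher sum was that of Acan, at a mean of 56.5 CPM in Control and 586 in rShh. Of the 7 tested, Acan and Sox9 rose and 4 fell, namely Cd24 (51.2 to 15.4 CPM), Krt8 (12.6 to 2.11), Foxa2 (2.09 to 0.588) and Col2a1 (1.61 to 0.107). Krt18 was at 0 in 4 of 6 libraries, and the notochord genes T and Noto were not analysed here. Annulus and tendon markers, 4 of 5 in the table and nearly all Col1a1, summed to 33601 to 36715 CPM in Control and 16138 to 16956 in rShh. Col1a1 and Scx fell, while Thbs4 (0.551 to 36.9 CPM) and Mkx (16.96 to 21.55) rose. Markers of leukocytes summed to 10.9 to 14.1 CPM in Control and 13.0 to 15.5 in rShh, nearly all of it Cd14 (4 of 6 in the table), and those of endothelium to 4.86 to 7.00 and 1.89 to 2.22 CPM, nearly all of it Tek (2 of 6). Epithelial and erythroid markers stayed at or below 0.301 CPM in every library. Schwann cell markers summed to 1.54 to 3.41 CPM in Control and 1.43 to 1.80 in rShh, and muscle markers to 55.9 to 92.7 and 84.5 to 107 CPM, with a rise of Des from 1.19 to 7.34 CPM as the only call in those 2 lists. In bulk RNA, fewer cells of a type and less RNA per cell cannot be told apart. The part of these differences in the results was not tested.

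Of the 10 clock genes, 6 rose and 1 fell with rShh, and 3 did not pass, in edgeR's quasi-likelihood test at an adjusted p of 0.05. The risers were the 4 activators, Arntl, Arntl2, Clock and Npas2, with Per3 and Cry1, and Cry2 fell. Across all 14775 genes tested 60.3% were called, 31.5% upwards and 28.8% downwards, so 7 calls among 10 lie near what the whole table gave. The median log2 change of the 10 was 0.43, against 0.01 over all genes tested. The CPM values of the groups did not overlap for 8 of the 10, 7 higher and 1 lower in rShh, which held for 68.1% of all genes (35.7% higher and 32.5% lower).

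**Figure D1:**
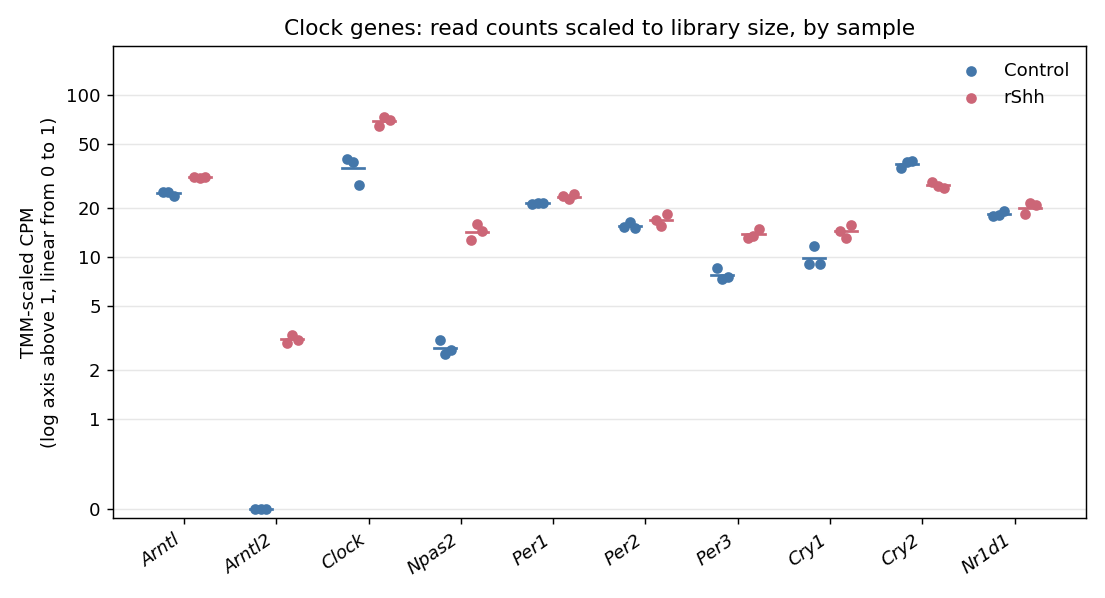
TMM-scaled CPM (log axis above 1, linear from 0 to 1) of the 10 clock genes in each of 3 Control (blue) and 3 rShh (red) samples, with the group mean as a bar. Arntl2 is at 0 in every Control sample, and the groups overlap for Per2 and Nr1d1.

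Among the activators, Arntl and Clock had smaller fold changes than their paralogues Arntl2 and Npas2, a difference between genes that was not tested. Arntl, the required partner of CLOCK in most tissues, lies on chromosome 1 at 178039063 to 178137465 on the plus strand in the deposited table, whose genome build is not given in the sources used here. It had 24.98, 25.23 and 23.66 CPM in the Control samples and 31.2, 30.8 and 30.9 in the rShh samples. All 3 rShh samples lay above all Control samples, and the gap between the groups was wider than the spread within either. The increase was 1.26-fold (log2 change 0.33, SE 0.07, edgeR adjusted p = 0.00292), and 64.8% of the genes tested had a larger absolute change.

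Arntl2, a paralogue that can also pair with CLOCK (chromosome 4, 181103774 to 181214994, plus strand), had 0 counts in each Control library and 189, 229 and 201 counts in the rShh libraries. The rShh values were 2.93, 3.29 and 3.07 CPM. A count of 0 allows up to 3 counts per library, or 0.0530 to 0.0591 CPM, and against that floor Arntl2 was at least 55.3-fold higher (edgeR adjusted p = 2.98e-06). The floor covers counting error only. The gene was therefore detected in every library of 1 group and in none of the other, at a low level in the first.

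Clock, the DNA-binding partner with acetyltransferase activity (chromosome 14, 34446616 to 34502218, plus strand), stood at 40.2, 38.5 and 27.6 CPM in Control and 64.0, 73.1 and 70.0 in rShh. Control replicate 3 was the lowest sample, and the groups did not overlap. The gene rose 1.95-fold (log2 change 0.96, SE 0.13, edgeR adjusted p = 9.7e-05).

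Npas2, the paralogue that can stand in for CLOCK (chromosome 9, 45901741 to 46081880, plus strand), had 3.09, 2.52 and 2.66 CPM in Control and 12.7, 15.9 and 14.4 in rShh. It rose 5.19-fold (log2 change 2.37, SE 0.15, edgeR adjusted p = 4.91e-07), and 5.94% of the genes tested had a larger absolute change. With Arntl2 it made 2 clock genes that rose at least 2-fold by CPM, as 13.0% of all genes tested did.

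The repressors did not move as a block. Per1, a period gene that also responds quickly to serum and hormones (chromosome 10, 55687050 to 55695994, plus strand), was at 21.2, 21.4 and 21.5 CPM in Control and 23.6, 22.7 and 24.4 in rShh. The groups did not overlap, but the difference did not pass (edgeR adjusted p = 0.150), with a log2 change of 0.14 and a 95% interval of -0.04 to 0.32.

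Per2, the period gene whose protein sets much of the loop's timing (chromosome 9, 98555169 to 98597359, minus strand), had 15.4, 16.3 and 15.1 CPM in Control and 16.8, 15.5 and 18.3 in rShh. The groups overlapped, and the log2 change of 0.11 (95% interval -0.11 to 0.34) did not pass (edgeR adjusted p = 0.358). Its sign was reversed in 1 of 15 alternative settings. That was quantile normalization, which gave -0.08 and shifted the median log2 change of all genes to -0.07. For both Per1 and Per2 the intervals leave out an increase above 1.25-fold and 1.26-fold respectively.

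Per3, the third period gene and the least needed for rhythm itself (chromosome 5, 168086998 to 168123395, minus strand), had 8.58, 7.28 and 7.47 CPM in Control and 13.2, 13.5 and 14.8 in rShh. Every rShh sample exceeded every Control sample. It rose 1.78-fold (log2 change 0.83, SE 0.12, edgeR adjusted p = 0.000161).

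The 2 cryptochromes, which bind and inhibit the activators, went in opposite directions. Cry1 (chromosome 7, 24534615 to 24634097, plus strand) had 9.02, 11.7 and 8.99 CPM in Control and 14.5, 13.0 and 15.7 in rShh, and Control replicate 2 came closest to the other group. It rose 1.45-fold (log2 change 0.54, SE 0.14, edgeR adjusted p = 0.00574). Cry2 (chromosome 3, 81314149 to 81344110, minus strand) had 35.5, 38.3 and 38.9 CPM in Control and 28.8, 27.3 and 26.7 in rShh. All rShh samples lay below all Control samples, and the gene fell by 0.45 on the log2 scale (SE 0.08, edgeR adjusted p = 0.000509), so that Control was 1.36-fold higher.

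Nr1d1, which encodes the repressor REV-ERB alpha (chromosome 10, 86683875 to 86690815, minus strand), was at 17.9, 18.2 and 19.3 CPM in Control and 18.3, 21.4 and 20.8 in rShh. The groups overlapped through rShh replicate 1, and the log2 change of 0.13 (95% interval -0.08 to 0.34) did not pass (edgeR adjusted p = 0.271). Its row shares 1059 bases with that of Thra, a thyroid hormone receptor gene on the other strand, which had 129, 136 and 138 CPM in Control and 65.2, 62.3 and 64.2 in rShh and fell (edgeR adjusted p = 1.44e-07). The libraries mark strand, but the strand setting of the counting is not given in the sources used here, so reads of the 2 genes cannot be told apart in that stretch. Thra was chosen after its values were seen.

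**Figure D2:**
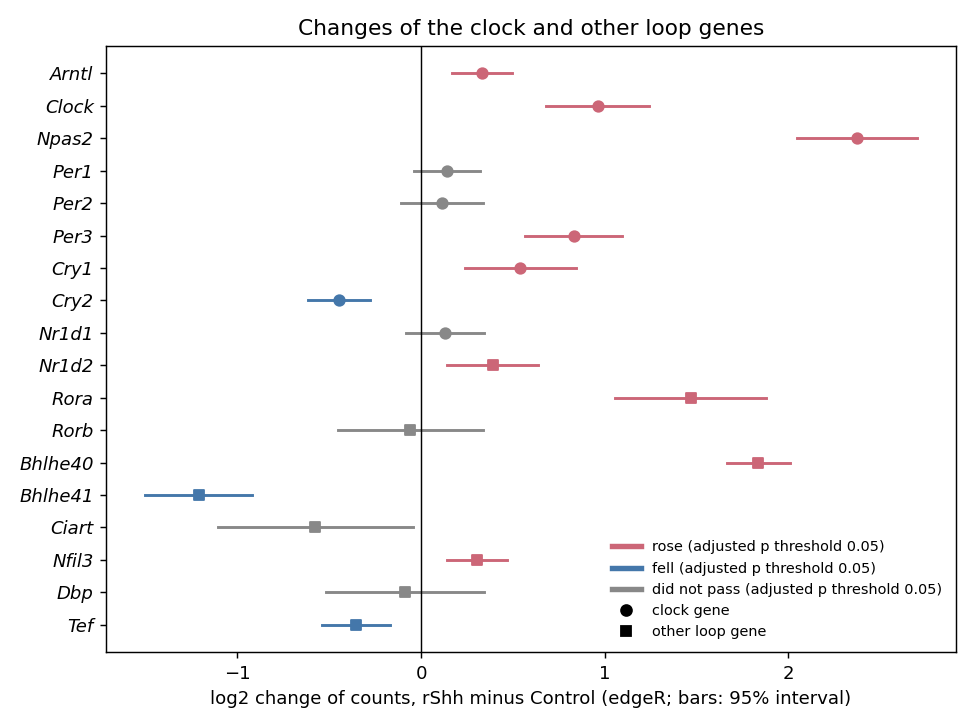
Log2 change of counts, rShh minus Control, from edgeR with 95% intervals for the clock genes (circles) and the other loop genes (squares), coloured by call. Arntl2 is left out because its Control counts are all 0; Npas2 (2.37) and Bhlhe40 (1.84) lie farthest to the right and Bhlhe41 (-1.21) farthest to the left.

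Levels of different genes were compared on the deposited FPKM values, which are scaled to length. In Control, Cry2 was the highest clock gene at 7.92 ± 0.303 FPKM (mean ± SD, n = 3), followed by Arntl at 6.93 ± 0.275, Nr1d1 at 6.05 ± 0.209 and Per1 at 4.41 ± 0.012. Clock (3.15 ± 0.629) and Cry1 (2.83 ± 0.429) came next and overlapped, ahead of Per2 (2.26 ± 0.0915), Per3 (0.997 ± 0.101), Npas2 (0.539 ± 0.0644) and Arntl2, listed at 0. In rShh the order ran Arntl (8.76 ± 0.0824), Nr1d1 (6.66 ± 0.647), Clock (6.17 ± 0.512), Cry2 (5.85 ± 0.157), Per1 (4.90 ± 0.175), Cry1 (4.14 ± 0.371), Npas2 (2.82 ± 0.355), Per2 (2.46 ± 0.202), Per3 (1.79 ± 0.129) and Arntl2 (1.21 to 1.40). The neighbours Nr1d1 and Clock, Clock and Cry2, and Npas2 and Per2 overlapped there, and the other neighbours in either order did not. By gene FPKM, Cry2 thus led in Control and Arntl in rShh. For 4 genes the gene FPKM was lower than the sum of the transcript FPKM. On the mean of all samples it was 0.683 of that sum for Clock, 0.607 for Per3, 0.872 for Arntl2 and 0.917 for Nr1d1. The places of these 4 can depend on which value is used, and so does the first place in rShh. There the Clock transcripts with counts had means of 4.85 and 4.47 FPKM, together above the 8.76 of Arntl.

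Within families, the paralogue least abundant in Control gained ground in 4 of 5 cases. Arntl2 made up 12.3%, 13.7% and 12.8% of the summed FPKM of Arntl and Arntl2 in the rShh samples and was listed at 0 in Control. Npas2 made up 14.5%, 12.6% and 17.5% of Clock plus Npas2 in Control and 30.4%, 32.3% and 31.1% in rShh. From summed transcript FPKM the Npas2 share was 11.3% ± 2.11 and 23.2% ± 0.433 (SD, n = 3), lower in both groups and with groups still apart. The Per3 share of the 3 period genes went from 13.0% ± 1.15 to 19.6% ± 0.643, with Per1 at 57.6% ± 0.959 and 53.6% ± 0.928. Per2 lost share as well, from 29.4% ± 1.02 to 26.8% ± 0.868, with groups apart. From summed transcript FPKM the Per3 share was 17.8% ± 0.867 and 30.0% ± 1.28, a rise of 12.2 percentage points in place of 6.60. That sum gives much weight to short Per3 transcripts with few counts. In rShh replicate 1, a transcript of 396 bases had 20 counts and 21.9% of the gene's transcript FPKM. The one of 4997 bases had 817 counts and 72.2% there. The Cry1 share of the cryptochromes went from 26.2% ± 2.73 to 41.4% ± 2.62. For the REV-ERB genes the groups overlapped, with Nr1d2 at 36.7% ± 3.70 and 41.1% ± 2.32 of the sum. These shares follow from the same counts as the changes above and were not tested.

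**Figure D3:**
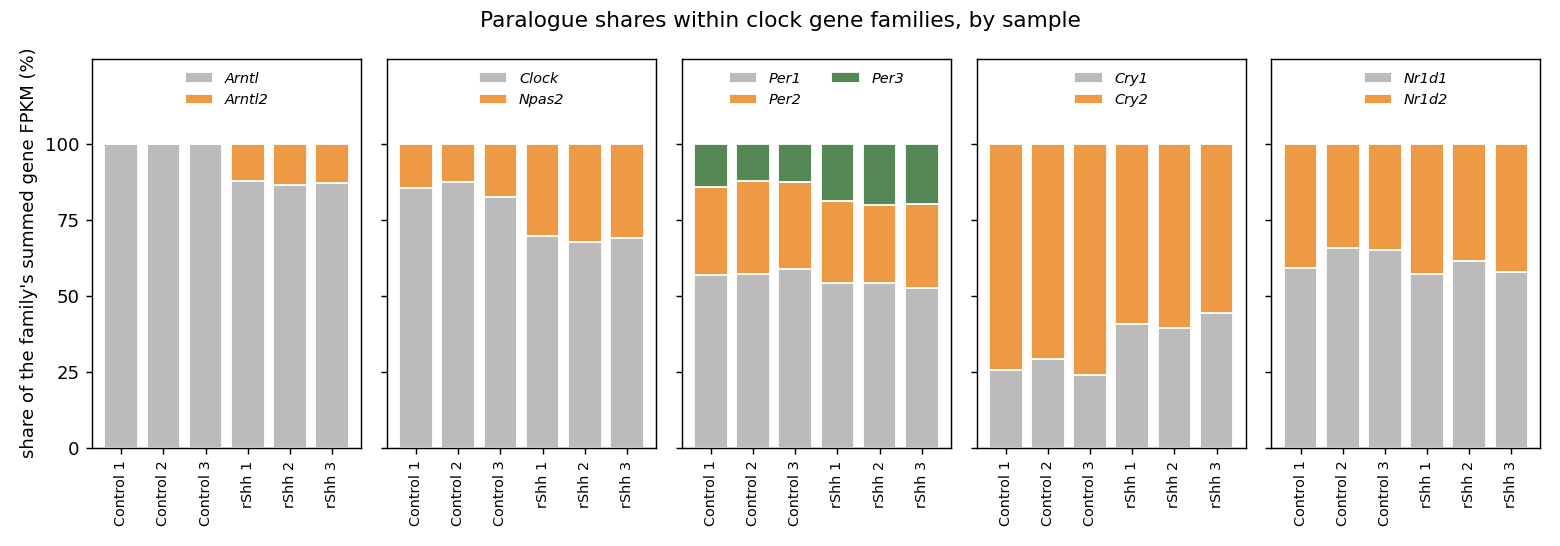
Share (%) of each paralogue in the summed gene FPKM of its family, as stacked bars for each of the 6 samples. Arntl2, Npas2, Per3 and Cry1 take a larger share in all 3 rShh samples than in any Control sample, whereas the Nr1d1 and Nr1d2 shares overlap between groups.

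Summed within families, the activators changed most. Clock and Npas2 together went from 3.69 ± 0.661 to 8.99 ± 0.865 FPKM, 2.44-fold, and Arntl with Arntl2 from 6.93 ± 0.275 to 10.1 ± 0.174, 1.45-fold. The period genes summed to 7.67 ± 0.127 and 9.15 ± 0.490 FPKM, 1.19-fold, and Nr1d1 with Nr1d2 to 9.57 ± 0.516 and 11.3 ± 0.818, 1.18-fold. The cryptochromes summed to 10.7 ± 0.592 and 9.99 ± 0.300 FPKM, the only 1 of the 5 sums whose groups overlapped, in a family of which both members changed, in opposite directions.

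Transcript rows showed where the reads of each gene were placed. The 10 genes had 20 transcript rows, of which 13 could be tested, and 7 of these rose and 1 fell (adjusted over all 18180 transcripts tested, of which edgeR called 45.1%, with 23.8% up and 21.3% down). The groups did not overlap for 9 of the 13 with rShh higher and for 1 with rShh lower, against 59.6% of all transcripts (31.4% and 28.2%). Arntl, Arntl2, Npas2, Per1, Per2, Cry1 and Cry2 each had a single row, which repeats the gene's counts. For Cry1 that row passed with an edgeR adjusted p of 0.0269 but not without Control replicate 1 (0.0688), Control replicate 3 (0.0741), rShh replicate 1 (0.0747) or rShh replicate 3 (0.0912), nor with replicate number as a block (0.0796), while the gene test passed in each of these.

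Clock was spread over 3 transcripts. The one of 9294 bases and 20 exons (ENSRNOT00000085991) had 2.68, 2.75 and 2.02 FPKM in Control and 4.53, 4.92 and 5.10 in rShh, and rose (log2 change 0.95, edgeR adjusted p = 0.00151). The one of 2914 bases (ENSRNOT00000002976) had 1.31, 2.24 and 1.41 FPKM in Control and 3.69, 5.70 and 4.04 in rShh, and rose as well (log2 change 1.41, edgeR adjusted p = 0.00693). The remaining one, of 9204 bases and 19 exons (ENSRNOT00000002981) held 352 counts in Control replicate 1 and 0 in the other 5 libraries. Its length is close to that of the 9294-base transcript, and the 2 cover the same 34455934 to 34502218 on chromosome 14, so counts of such near-identical transcripts can be split between them and are uncertain.

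Per3 had 8 rows, led by the full-length transcript of 4997 bases (ENSRNOT00000024932), which had 1.43, 1.19 and 1.21 FPKM in Control and 2.10, 2.19 and 2.36 in rShh and rose (log2 change 0.78, edgeR adjusted p = 0.00293). A retained-intron transcript of 396 bases (ENSRNOT00000092912) had 0, 5 and 2 counts in Control and 20, 14 and 11 in rShh, and did not pass (edgeR adjusted p = 0.114). A short coding transcript of 561 bases (ENSRNOT00000093063) had 1 to 3 counts in Control and 3, 8 and 22 in rShh, too few to be tested. Nr1d1 was carried by its transcript of 2338 bases (ENSRNOT00000012537), with 6.39, 6.40 and 6.85 FPKM in Control and 6.47, 7.45 and 7.04 in rShh (log2 change 0.08, edgeR adjusted p = 0.476). Its other transcript of 2308 bases (ENSRNOT00000055333) had 11, 11 and 2 counts in Control and 0, 71 and 85 in rShh, so rShh replicate 1 stood apart from its group (edgeR adjusted p = 0.250, and 0.0337 without that replicate).

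The other genes of the clock loops moved both ways. Of 10 in the table, 9 could be tested: 4 rose, 2 fell and the other 3 missed the threshold. That is 66.7% called, near the 60.3% of all genes. Their median log2 change was -0.06. Hlf, a D-box factor, had 8 counts in rShh replicate 2 and 0 elsewhere.

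Bhlhe40 and Bhlhe41 (DEC1 and DEC2), E-box repressors that compete with the activators, moved apart. Bhlhe40 (chromosome 4, 140703619 to 140709319) had 25.6, 28.7 and 26.1 CPM in Control and 88.3, 99.1 and 99.8 in rShh, a 3.57-fold increase (log2 change 1.84, SE 0.08, edgeR adjusted p = 3.23e-08). Bhlhe41 (chromosome 4, 180232382 to 180234804) had 13.4, 15.9 and 15.2 CPM in Control and 6.47, 5.62 and 7.12 in rShh, and was 2.32-fold higher in Control (log2 change -1.21, SE 0.13, edgeR adjusted p = 2.45e-05). Per length, the ratio of Bhlhe40 to Bhlhe41 FPKM was 0.864 to 0.965 in the Control samples and 6.89 to 8.89 in the rShh samples. The Control samples thus held similar levels of the pair, and the rShh samples mostly Bhlhe40.

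Regulators that act on ROR elements, such as those printed for Arntl, rose where they were called. Rora, an activator at those elements (chromosome 8, 75516904 to 75607212), had 2.10, 2.55 and 1.93 CPM in Control and 5.77, 6.82 and 5.64 in rShh, a 2.77-fold increase (log2 change 1.47, SE 0.18, edgeR adjusted p = 6.98e-05). Nr1d2, which encodes the repressor REV-ERB beta, had 22.4, 17.1 and 18.7 CPM in Control and 24.8, 24.2 and 27.3 in rShh and rose 1.31-fold (edgeR adjusted p = 0.0117). That call was lost without rShh replicate 3 (edgeR adjusted p = 0.0559) and after quantile normalization (limma adjusted p = 0.0795). Rorb, with 3.71 to 5.13 CPM in Control and 3.94 to 4.34 in rShh, did not pass (edgeR adjusted p = 0.794). An activator and a repressor of the same kind of element were therefore both higher in rShh.

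**Figure D4:**
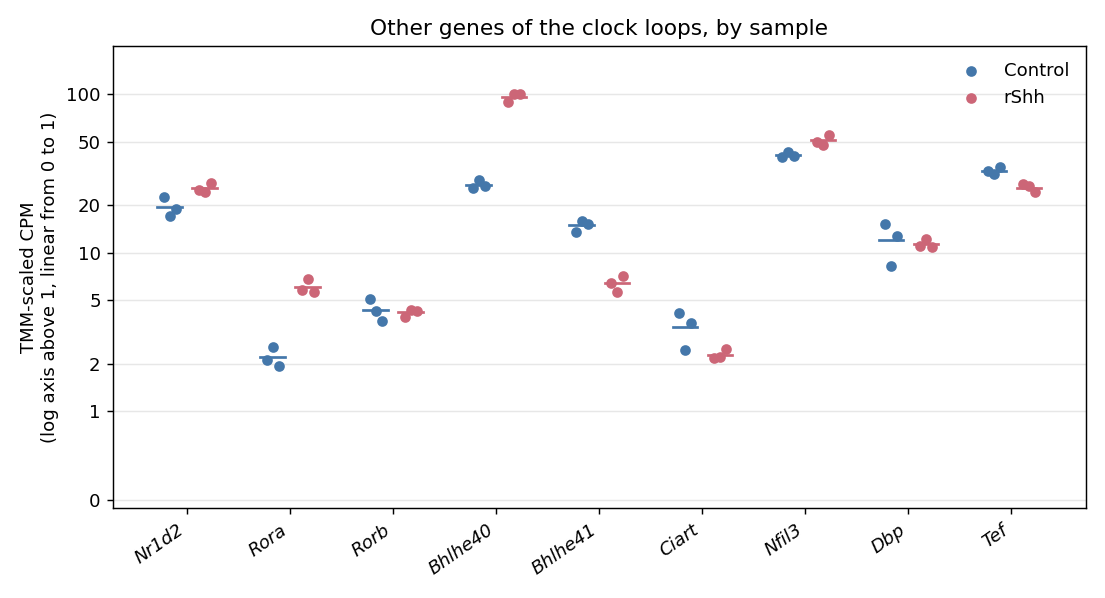
TMM-scaled CPM (log axis above 1, linear from 0 to 1) of 9 other genes of the clock loops in each of 3 Control (blue) and 3 rShh (red) samples, with the group mean as a bar. Bhlhe40 and Rora are higher and Bhlhe41 and Tef lower in all rShh samples, and Dbp spreads from 8.18 to 15.1 CPM within Control.

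D-box factors, which read out the loop, showed small differences. Nfil3, the D-box repressor, had 40.1, 42.9 and 40.3 CPM in Control and 49.8, 47.9 and 54.7 in rShh and rose 1.24-fold (edgeR adjusted p = 0.00472). Tef, a D-box activator, had 32.6, 31.2 and 34.7 CPM in Control and 26.9, 26.1 and 23.9 in rShh and fell, being 1.28-fold higher in Control (edgeR adjusted p = 0.00364). Dbp, the D-box activator most used as a clock readout, had 15.1, 8.18 and 12.8 CPM in Control and 10.98, 12.13 and 10.89 in rShh and did not pass (edgeR adjusted p = 0.719). Control replicate 2 was the lowest and Control replicate 1 the highest of all 6, and without the latter the log2 change of Dbp was 0.11 in place of -0.09. Ciart, a repressor of the activators, had 4.16, 2.42 and 3.61 CPM in Control and 2.16, 2.21 and 2.46 in rShh (edgeR adjusted p = 0.0584). It passed without Control replicate 2 (log2 change -0.77, edgeR adjusted p = 0.0126), and with all samples under upper quartile scaling (edgeR adjusted p = 0.0377) and quantile normalization (limma adjusted p = 0.0092).

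Enzymes and partners that act on clock proteins split evenly. Of 16 listed, 15 were tested, and 7 rose, 6 fell and the other 2 missed the threshold. That is 86.7% called, against 60.3% of all genes (31.5% up and 28.8% down), in a list of few genes. Their median log2 change was 0.07. Prkaa1, a catalytic subunit of AMPK, a kinase that marks cryptochromes for decay, rose from 26.8 ± 6.67 to 51.4 ± 0.235 CPM (mean ± SD, n = 3; edgeR adjusted p = 0.000256). Prkaa2, the other catalytic subunit and chosen after its values were seen, went the other way at a lower level, from 2.91 ± 0.422 to 1.86 ± 0.295 CPM (edgeR adjusted p = 0.0351). That call was lost in DESeq2 (adjusted p = 0.0504), with replicate number as a block (edgeR adjusted p = 0.0724) and without Control replicate 2 (0.0860), Control replicate 3 (0.0833), rShh replicate 2 (0.0963) or rShh replicate 3 (0.111). Fbxl21, a ubiquitin ligase subunit for cryptochromes, rose from 1.45 ± 0.344 to 3.97 ± 0.277 CPM (edgeR adjusted p = 0.00039). Siah2, a ubiquitin ligase that acts on REV-ERB alpha, fell from 11.8 ± 0.463 to 7.71 ± 0.343 CPM (edgeR adjusted p = 0.000843). The casein kinases Csnk1d and Csnk1e, which phosphorylate period proteins and were chosen after their values were seen, fell from 183 ± 4.86 to 157 ± 1.46 CPM and from 64.5 ± 4.27 to 50.1 ± 2.00 CPM. Sirt1 was not analysed here.

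Among 12 clock outputs, 8 rose, 0 fell and 4 missed the threshold in edgeR. That is 66.7% called, near the 60.3% of all genes, of which 31.5% rose and 28.8% fell. DESeq2 also gave 8 rises and 0 falls among the outputs, beside 4713 rises and 4274 falls among all 17229 genes it tested. The median log2 change of the 12 outputs in edgeR was 0.54. Upper quartile scaling and quantile normalization each gave 1 fall. Nampt, the rate-limiting enzyme of NAD salvage, rose from 25.5 ± 1.27 to 69.5 ± 1.53 CPM (edgeR adjusted p = 7.47e-08), and Wee1, a kinase that holds back mitosis, from 6.04 ± 0.855 to 14.0 ± 0.396 CPM (edgeR adjusted p = 2.61e-05). Rbm3, a cold-inducible RNA-binding protein, rose from 211 ± 0.904 to 329 ± 14.1 CPM (edgeR adjusted p = 2.67e-06). Ppargc1a, a metabolic coactivator, had 0 counts in each Control library and 14, 18 and 15 in rShh, at least 4.19-fold above the floor of 3 counts per library.

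Of 12 genes that carry signals into the clock, 4 rose, 1 fell and 7 did not pass, a smaller share of calls (41.7%) than the 60.3% of all genes, in a list of few genes. Crem, a factor at cAMP response elements, rose from 10.0 ± 0.717 to 24.4 ± 0.764 CPM (edgeR adjusted p = 1.96e-06). Nr3c1, the glucocorticoid receptor, rose from 36.2 ± 4.46 to 71.0 ± 0.782 CPM (edgeR adjusted p = 6.71e-06), and Fkbp5, one of its targets, from 8.13 ± 0.819 to 13.6 ± 0.955 CPM (edgeR adjusted p = 0.000437). Tsc22d3, another target of that receptor and chosen after its values were seen, fell from 57.6 ± 4.84 to 42.5 ± 0.485 CPM (edgeR adjusted p = 0.000569). No cAMP response element with the letters searched lay in the promoter windows of the 9 clock genes matched.

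Genes with profiles most like Arntl and Nr1d1 were sought among 12559 others with a mean of at least 1 CPM, by the root mean square difference of log2 CPM, each centred on its own mean over the 6 samples. Sppl2a, Scarb2 and Zfp131 came closest to Arntl, at 0.016, 0.018 and 0.019 log2 units. Nfatc1, Mau2 and Sh2b3 came closest to Nr1d1, at 0.021, 0.028 and 0.033. Within 0.1 units there were 906 genes for Arntl and 521 for Nr1d1, so such likeness was common.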

How the data were processed

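Poly(A) RNA libraries of 3 Control and 3 rShh samples were analysed. The submitters' processing notes list, without roles, cutadapt 1.9 together with HISAT2 2.0.4, StringTie 1.3.4d, edgeR and also DESeq2. Neither the genome build nor the strand setting is given in the sources used here. The authors deposited whole-number counts, not normalized, and FPKM values (per the file headers), for genes and for transcripts.

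Gene and transcript counts, as deposited, were tested in R 4.3.3 by edgeR 4.0.16 (filterByExpr, minimum count 10, TMM, glmQLFit, glmQLFTest, two-sided, group as the only term), with Benjamini-Hochberg adjustment over all rows tested and a threshold of 0.05. CPM are counts over the TMM-scaled library size. Intervals are 95%, on the log2 scale. Alternatives were DESeq2 1.42.0, other scalings, no filter, limma 3.58.1 on log2(FPKM + 1) and log2(FPKM + 0.1) with a mean of at least 1 FPKM, and leaving out each library. The tests were also run on simulated counts in which few rows were changed. In these data 60.3% of genes were called, so that run does not show how the tests behave here.

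The members and lists were chosen with earlier results of these data known. Named were all clock genes, their transcripts with a mean of at least 0.1 FPKM, all other loop genes, and in each further list the 3 genes with the smallest p and those called with a change of at least 2-fold. The 9204-base Clock transcript, and genes where said, were chosen after their values were seen. Libraries of the same group differed by more than counting noise (chi-square over degrees of freedom between 10.5 and 50.5). Each was counted as 1 sample, but this spread does not show whether they are separate animals or cultures.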

Additional observations from a re-analysis of the deposited data

How the results depend on the processing

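The 6 rises and 1 fall among the clock genes were the same in number under DESeq2, RLE and upper quartile scaling, no filter on low counts, limma without a filter and each omission of 1 library. With limma at a minimum of 1 FPKM (either pseudocount, or quantile-normalized) 5 rose and 1 fell, because Arntl2 was below the minimum. Quantile normalization, added after the data were seen, was run in limma on log2(FPKM + 1) with that minimum. It gave a log2 change of -0.078 for Per2 (0.084 in limma without it), 4 rises among the clock protein regulators (5 in limma without it, 13 tested in both, against 7 of 15 in edgeR), and 1 fall among the outputs, as did upper quartile scaling (1 fall). Quantile normalization shifted the median log2 change of all genes to -0.07. Leaving out 1 library gave log2 changes of -0.165 to 0.069 for Rorb and of -0.304 to 0.109 for Dbp, neither of which is called. The rise in share of Arntl2, Npas2 and Per3 in their families was 9.10, 9.78 and 8.11 percentage points from CPM, which are not scaled to length, and 14.5, 11.9 and 12.2 from summed transcript FPKM (added after the data were seen), against 12.9, 16.4 and 6.60 from gene FPKM. The cause of these shifts was not tested.

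Control and rShh samples share replicate numbers, but same-numbered samples did not deviate together (correlations of -0.075, -0.0097 and -0.0094). With the replicate number as a block edgeR called 4470 genes up and 3970 down, against 4657 and 4257, and 6 and 1 among the clock genes.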
